A study of Mus musculus with 12 samples.

Results

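RNA abundance was examined for departures from additivity when 2 drugs were given together to mouse prostate organoids. For every gene, the effect of the combination was set against the sum of the effects of each drug alone. The 12 samples were wild type organoids of the C57BL/6 strain that had been grown from basal cells of the prostate, and they fell into 4 groups of 3 replicates. One group received vehicle, one UK5099, one butyrate and one UK5099 with butyrate (called the combination here). The labels give neither dose nor time. A gene was a member if its mean reached 1 TPM or more (transcript abundance scaled to a total of 1000000 in every sample) in any group, which held for 14437 of the 24674 genes in the table. Of these, 10632 were protein coding. Just inside the limit, the highest group mean was 1.00029 TPM for Add2, with an interaction of 0.15, and just outside it 0.998655 for Ppih, with -0.03. The interaction was the combination effect minus both single effects, as differences in log2(TPM + 1), so that an interaction of 0 means that the fold changes multiplied. All 4 effects came from the same 12 samples, so their errors are shared.

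UK5099 blocks the mitochondrial pyruvate carrier, the route by which pyruvate made in the cytosol reaches the TCA cycle. Butyrate is a short-chain fatty acid that inhibits histone deacetylases and so raises histone acetylation. Basal cells of the prostate carry Krt5 and Krt14 and can give rise to luminal cells, which carry Krt8 and Krt18, while under other conditions basal epithelial cells can turn on the squamous programme of skin and oral mucosa, with suprabasal keratins and the proteins of the cornified envelope. Where agents share a path, their joint effect can be smaller than the sum, which is called saturation, and where each opens what the other needs, it can be larger, which is called synergy. These are names for patterns and carry no statement on mechanism.

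Both basal and luminal markers were present in every sample. Krt5 lay between 1838 and 4991 TPM and Krt8 between 117 and 929 TPM over the 12 samples. Endothelial markers summed to at most 0.692 TPM in any sample. Immune markers, of which only Cd68 and Cd14 were members, summed to between 234 and 244 TPM in vehicle and to between 84.2 and 111 TPM in the other 9 samples. Of the 22 immune markers listed 9 were in the table, and 5 of these stayed under 0.1 TPM in every group. In bulk RNA, fewer cells of a type and less RNA per cell cannot be told apart. UK5099 replicate 1 and combination replicate 1 stood further from their groups than other samples did, and without both of them 254 members were called, 224 of them among the 250 below. Depth was between 33251840 and 43498954 fragments per sample. The deposited scale lowered the median member by 0.12 for UK5099, 0.29 for butyrate and 0.40 for both drugs (log2), but the median interaction was 0.01.

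Interactions were small in most genes, with quartiles of -0.14 and 0.15. An interaction counted as called if larger than 1 in size with adjusted p below 0.01, and 250 members met this, 1.73% of those tested. It was positive in 127 (0.88%) and negative in 123 (0.852%). By comparison 454 members (3.14%) were called for UK5099 alone, 874 (6.05%) for butyrate alone and 1585 (11%) for the combination. Since log2(TPM + 1) cannot fall below 0, genes with a group mean or an expected combination level under 1 TPM were set apart as near zero. There were 2628 such members, and they held 108 of the 250 calls and 85 of the 127 positive ones. Away from zero, 142 of 11809 members (1.2%) were called, of which 42 (0.356%) were positive and 100 (0.847%) negative.

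The direction of each single effect placed these 142 genes in classes. A single effect was counted as moving at an adjusted p-value under 0.01 and a size of at least 0.5. At these limits saturation held the most genes. In 74 genes both drugs raised the transcript and the combination fell short of the sum, and in 27 both lowered it and the combination stopped above the sum. The 27 became 17 under median-of-ratios scaling and also after quantile normalisation, and 12 where a single effect had to reach 1. In 25 genes a single drug moved the transcript and its partner damped that effect, and in 3 the drugs had opposed effects. The combination went beyond the sum of the single effects in 13 genes, 2 of which were moved by both drugs, 3 by a single drug and 8 by neither. The classes rest on the same coefficients as the interaction, so their sizes are a description. The order of the classes holds only for interactions larger than 1. With no limit on size, 2296 members away from zero passed the adjusted p-value, of which 1110 were beyond the sum, 712 damped or opposed, 175 saturating up and 299 saturating down. A limit of 1 for single effects gave 29 genes beyond the sum.

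**Figure D1:**
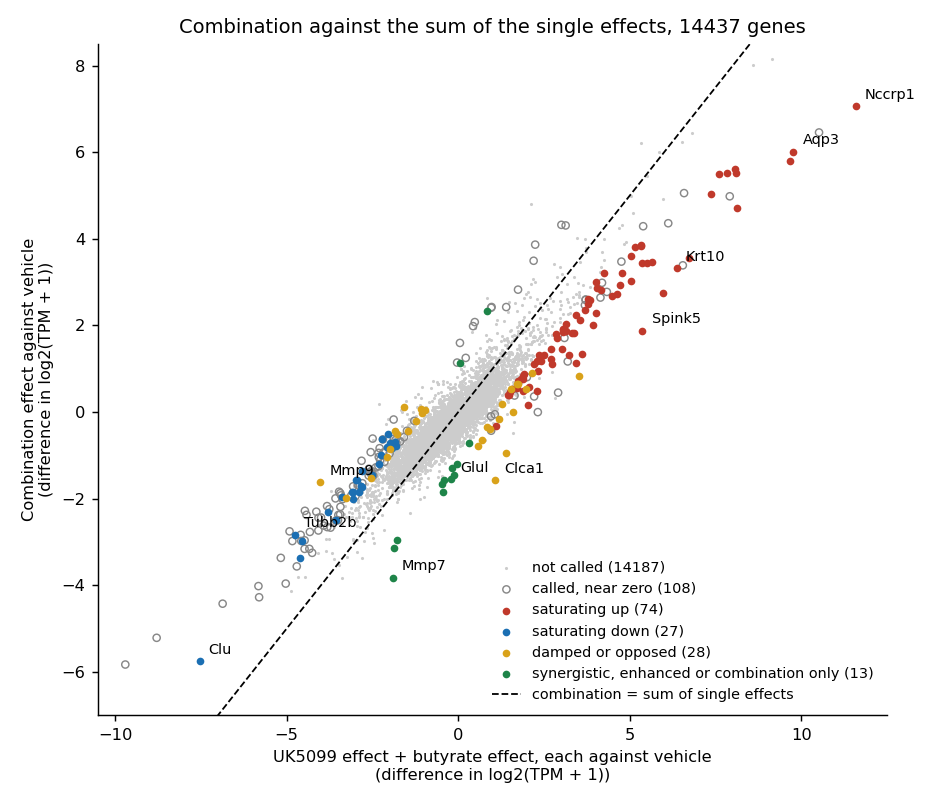
Each point is 1 of 14437 genes, with the sum of the UK5099 and butyrate effects on the x axis and the combination effect on the y axis, both as differences in log2(TPM + 1) against vehicle. Genes on the dashed line follow the sum. The 74 saturating up genes lie below it on the right, the 27 saturating down genes above it on the left. Of the 13 synergistic, enhanced or combination only genes, 11 lie below the line and 2 above it.

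Genes raised by both drugs included cornified envelope genes, suprabasal keratins, Ly6 surface proteins and transport genes. The largest interactions away from zero belonged to Nccrp1, Ly6g6c, Aqp3, Spink5 and Crnn, followed among listed genes by Psca, Ly6d and Krt10. Each drug alone raised all 8, and the combination lay beyond the stronger drug for Nccrp1, Ly6g6c and Aqp3, by at least 0.5 with an adjusted p-value under 0.01. Among all 74 genes the median effect (log2) was 1.86 for UK5099, 1.59 for butyrate and 1.96 for both drugs.

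Nccrp1 (chromosome 7, 28243021 to 28246680 as the table gives it, minus strand), an F-box-associated protein of stratified epithelia, had the largest interaction away from zero. It was at 3.01, 2.64 and 2.85 TPM in vehicle, 206, 152 and 240 with UK5099, 230, 221 and 232 with butyrate and 676, 441 and 458 with the combination. Multiplied fold changes would have given 11753 TPM, and the sum of the changes in TPM 424. The interaction was -4.51 ± 0.26 (SE), adjusted p = 4.2e-06. All 3 combination samples lay above every single-drug sample, yet far under the product. The gene overlaps Samd4b on the same strand in the table, so reads could be shared.

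Aqp3 (chromosome 4, 41092722 to 41098184, minus strand) encodes a channel for water and glycerol in basal and suprabasal keratinocytes. Its values were 3.57, 3.54 and 2.92 TPM in vehicle, 154, 145 and 161 with UK5099, 104, 107 and 105 with butyrate and 298, 269 and 272 with the combination. The groups did not overlap, and the interaction was -3.75 ± 0.09 (SE), adjusted p = 5.0e-08. The combination exceeded UK5099 by 0.86 (95% interval 0.72 to 1.01). On the TPM scale it lay at 280 against a sum of 255. Thus Aqp3 fell far short of multiplied folds while every combination sample was above the sum of the TPM changes.

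Crnn, the cornulin of the cornified envelope, ended level with butyrate. It stood at 13.2, 12.4 and 12.8 TPM in vehicle, 164, 126 and 160 with UK5099, 366, 349 and 353 with butyrate and 413, 338 and 343 with the combination. The butyrate and combination samples overlapped, and their difference was 0.03 (95% interval -0.21 to 0.26). Spink5, an inhibitor of the serine proteases that shed the outer epidermis, went the other way. It measured 1.58, 1.85 and 1.59 TPM in vehicle, 15, 11.6 and 13 with UK5099 and 20.7, 19.6 and 19.2 with butyrate, but only 9.92, 8.27 and 8.44 with the combination. Here the combination lay under every single-drug sample, with a difference of -1.08 from butyrate (adjusted p = 1.8e-05).

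Suprabasal keratins behaved unevenly. Krt10, which pairs with Krt1 in the suprabasal epidermis, was at 2.68, 2.43 and 2.80 TPM in vehicle, 115, 108 and 132 with UK5099, 8.16, 7.80 and 8.45 with butyrate and 42.6, 31.2 and 33.7 with the combination. Butyrate alone raised Krt10, and yet adding it to UK5099 left Krt10 lower by 1.70 than UK5099 alone (adjusted p = 8.4e-07). Krt13, the keratin of mucosal squamous epithelium, was at 268, 237 and 287 TPM with UK5099, 98.4, 96 and 97.4 with butyrate and 510, 360 and 379 with the combination, from 10.8, 12.9 and 11 in vehicle. So the combination exceeded both single drugs for Krt13 and lay between them for Krt10. Krt78 had an interaction of -2.26 and Krt1 of -1.14. Of the 12 members in the list of suprabasal and stress keratins 4 were called negative and 1 positive, with a median interaction of -0.65 against 0.01 over all members. Over all members 0.852% were called negative and 0.88% positive.

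The Ly6 family of small surface proteins held 14 members, of which 5 were called negative and 0 positive, and 13 had a negative sign. Of all 14437 members 0.852% were called negative, and 7071 had a negative sign. Ly6g6c went from 2.17, 1.67 and 1.88 TPM in vehicle to 69.3, 58.3 and 87.5 with UK5099, 93.2, 93.7 and 99.1 with butyrate and 194, 143 and 148 with the combination. Psca, the prostate stem cell antigen, was at 117, 121 and 94.1 TPM in vehicle, 835, 635 and 928 with UK5099, 1007, 938 and 952 with butyrate and 966, 615 and 684 with the combination. Ly6d, found on basal and progenitor cells of the prostate, was at 89.1, 95.6 and 93.8 TPM in vehicle, 1221, 1151 and 1246 with UK5099, 799, 760 and 767 with butyrate and 1194, 1039 and 1062 with the combination. For Psca the combination samples overlapped those of both single drugs, and for Ly6d they overlapped those of UK5099. The combination differed from the stronger drug by -0.38 for Psca (95% interval -0.81 to 0.04) and by -0.14 for Ly6d (-0.26 to -0.01).

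**Figure D2:**
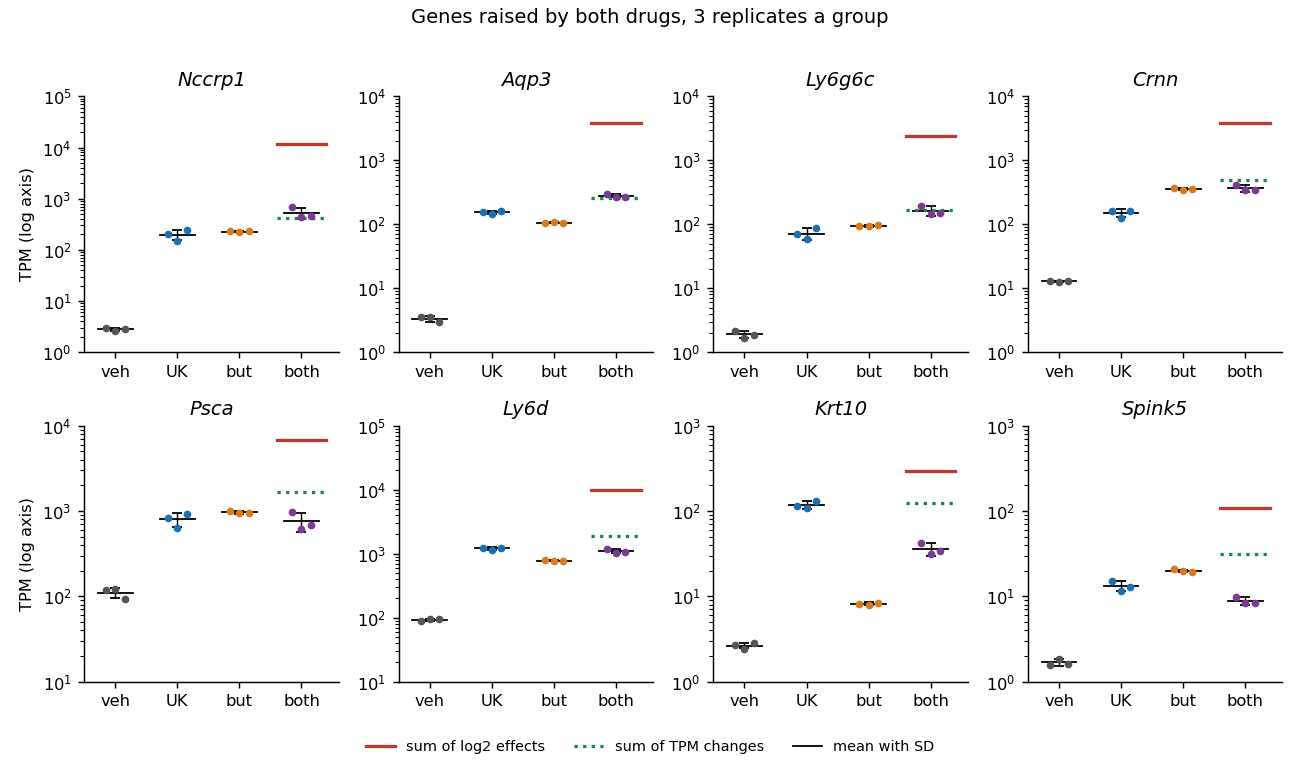
Points are the 3 replicates of each group (veh, vehicle; UK, UK5099; but, butyrate; both, combination) in TPM on a log axis, with the mean and SD. The solid red bar is the level expected from the sum of log2 effects and the dotted green bar that from the sum of TPM changes. All 8 genes lie under the red bar with the combination. All 3 combination replicates of Nccrp1 and Aqp3 lie above the green bar, as does replicate 1 of Ly6g6c.

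The promoters of 4 of these genes are shown because each holds the letters TATAAA, the core of a TATA box, within 30 bases of the annotated start. The 250 bases before the start were taken from RefSeq on GRCm38.p6 and are written 5′ to 3′ on the gene's strand, with the motif in capitals. They lie at chr4:41098184-41098433 (minus strand, Aqp3), chr11:99389365-99389614 (minus, Krt10), chr3:93144539-93144788 (plus, Crnn) and chr17:35067075-35067324 (plus, Ly6g6c).
Aqp3: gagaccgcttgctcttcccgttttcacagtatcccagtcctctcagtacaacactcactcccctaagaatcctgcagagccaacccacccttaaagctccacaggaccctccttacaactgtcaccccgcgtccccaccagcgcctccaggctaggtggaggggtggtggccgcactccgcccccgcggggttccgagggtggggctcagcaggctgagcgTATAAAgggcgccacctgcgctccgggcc
Krt10: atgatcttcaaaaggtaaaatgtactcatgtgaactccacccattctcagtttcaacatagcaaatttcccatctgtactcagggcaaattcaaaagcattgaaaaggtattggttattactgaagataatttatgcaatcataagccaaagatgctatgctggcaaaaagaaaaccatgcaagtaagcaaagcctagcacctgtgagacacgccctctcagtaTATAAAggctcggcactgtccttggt
Crnn: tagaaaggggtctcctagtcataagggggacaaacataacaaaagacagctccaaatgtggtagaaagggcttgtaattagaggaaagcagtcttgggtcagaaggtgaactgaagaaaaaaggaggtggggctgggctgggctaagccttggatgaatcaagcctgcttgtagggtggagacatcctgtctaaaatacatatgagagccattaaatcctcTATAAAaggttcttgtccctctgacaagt
Ly6g6c: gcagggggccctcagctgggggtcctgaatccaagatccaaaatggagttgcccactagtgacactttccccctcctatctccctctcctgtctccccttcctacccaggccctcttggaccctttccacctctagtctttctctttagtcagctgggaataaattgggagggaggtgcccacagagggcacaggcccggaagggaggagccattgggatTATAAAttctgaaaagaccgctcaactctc
The motif begins at -29 in Aqp3 and Crnn, at -26 in Krt10 and at -30 in Ly6g6c, counted from the start. Searched on both strands, TATAAA occurred in 6.69% of the 8834 member promoters in the RefSeq table. It occurred in 16 of the 60 promoters found for the 100 genes with a negative interaction away from zero and in 8 of the 30 found for the 42 with a positive one. Because the table held fewer than 80% of either set, a comparison of these shares is void. A match describes letters in this window and no binding was measured.

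The rest of the 74 genes spread over several functions. Among junction genes, Dsg4, a desmosomal cadherin, had an interaction of -1.92 and Cldn1, the barrier claudin, of -1.50. Zfp750, a transcription factor of epidermal differentiation, was at 11.5, 11.5 and 12.2 TPM in vehicle, 71.9, 67.8 and 74.8 with UK5099, 55.6, 52.6 and 53.0 with butyrate and 87.6, 79.7 and 81.1 with the combination, an interaction of -1.90. The Notch ligand Dll1 (-1.42), the early response factor Egr3 (-1.48), the serine protease Tmprss11b (-2.01) and the protease inhibitor Serpinb1a (-1.19) were in the same class. So were the retinoic acid binding protein Crabp2 (-1.49), the cytokine Tslp (-1.42) and the antimicrobial peptide Defb1 (-2.31).

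A few transport and detoxification genes were in the same class, while most members of their lists were not called. Car12, a membrane carbonic anhydrase, was at 1.58, 1.74 and 1.70 TPM in vehicle, 9.55, 9.77 and 9.73 with UK5099, 26.3, 26.1 and 26.6 with butyrate and 27.2, 28.5 and 28.8 with the combination, so that nearly the whole combined level was seen with butyrate. Of the 18 listed aquaporins and ion transport genes 5 were called negative and 1 positive, against 0.852% and 0.88% of all members. In the list of glutathione, NRF2 and metallothionein genes 4 of 37 members were called, all negative, while 15 of the 37 had a positive sign and the median was -0.16. They included the quinone reductase Nqo1, at 7.62 ± 0.313 TPM in vehicle and 52.6 ± 2.35, 21.7 ± 0.463 and 61.8 ± 2.54 with UK5099, butyrate and the combination (SD, n = 3), and the aldehyde dehydrogenase Aldh3a1 with an interaction of -2.18. Ldhd, the mitochondrial D-lactate dehydrogenase, was raised by each drug, from 14.9, 14.5 and 13.7 TPM to 35.9, 35.4 and 35.1 with UK5099 and 24.6, 25.3 and 26.4 with butyrate, but came back to 17.0, 15.7 and 16.1 with the combination. It was the only called member among 21 genes of pyruvate and lactate handling.

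Measured against the stronger single drug, the 74 genes divided further. In 12 the combination lay beyond it by at least 0.5 with an adjusted p-value under 0.01, among them Aldh3a1, Aqp3, Krt13, Ly6g6c and Nccrp1. Over all members 2.49% lay beyond it and 2.21% short of it by the same rule. In another 12 of the 74 it lay as far short of it, among them Arg1, Defb1, Egr3, Krt10, Krt78, Ldhd and Spink5. For the other 50 neither held, and for 33 genes of the 74 the 95% interval of the difference lay within 0.5 in either direction. On the TPM scale the combination was under the sum of the changes in 64 of the 74, in all 3 replicates for 60. In 8 genes all 3 replicates were above that sum: Aqp3, Cysrt1, Fabp5, Gm14328, Gm6166, Krt13, Krtdap and Nccrp1. These are saturating only on the log scale. The values of Fabp5 and Gm6166 are uncertain, since none of their 3 low values came to a whole number of fragments, which occurs when reads are divided among near-identical genes. In the voom fit on recovered fragments all 74 kept a negative interaction at an adjusted p-value under 0.05.

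Genes lowered by both drugs included cytoskeletal genes, secreted factors and genes of amino acid supply. In this class of 27 genes the median effect was -1.31 for UK5099, -1.50 for butyrate and -1.57 for both drugs. The combination was beyond the stronger drug only for Clu and Noxo1, and it was short of it for Bst2, Cldn6, Inhba, Nes, Tnnt2, Tuba1a and Tubb2b. None of the 11 low values of Noxo1 was whole, which leaves its level uncertain. For 24 of the 27, adding the changes in TPM would have given a level below 0, which no gene can have, so the sum of TPM changes is no usable expectation there.

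Tubb2b, a beta-tubulin of growing neurites that epithelia also express, was at 111, 120 and 112 TPM in vehicle, 51.9, 46.5 and 53.8 with UK5099, 8.55, 7.88 and 9.04 with butyrate and 15.5, 14.8 and 15.3 with the combination. Every combination sample was above every butyrate sample, by 0.78 (95% interval 0.64 to 0.91). None of its 6 low values was whole, so reads may be divided with related tubulins. Tuba1a, an alpha-tubulin, had the same order, at 336, 345 and 345 TPM in vehicle, 228, 243 and 240 with UK5099, 60.3, 62.0 and 65.1 with butyrate and 113, 116 and 117 with the combination. Nes, the intermediate filament nestin, was lowest with UK5099, at 16.7, 16.4 and 17.0 TPM against 28.4, 30.9 and 31.6 with the combination.

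Clu, a secreted chaperone, showed a large fall at each step. It was at 515, 514 and 502 TPM in vehicle, 50.2, 52.7 and 55.6 with UK5099, 25, 24.4 and 26.4 with butyrate and 8.48, 8.85 and 8.24 with the combination, or 1.67% of vehicle. The product of the folds would have given 1.76 TPM, hence an interaction of 1.79 ± 0.06 (SE), adjusted p = 1.6e-07. Inhba, which encodes the subunit that forms activin A, was at 169, 165 and 170 TPM in vehicle, 101, 111 and 114 with UK5099, 9.75, 9.62 and 10.8 with butyrate and 18.5, 21.7 and 21.5 with the combination. So UK5099 lowered Inhba when given alone, and Inhba was higher by 0.96 with UK5099 added to butyrate than with butyrate alone (adjusted p = 5.5e-06). Rhoc, a small GTPase of cell motility, went from 103, 101 and 100 TPM in vehicle to 32.0, 31.3 and 34.3, 28.6, 28 and 29.8, and 25.2, 25.2 and 25.7 in the same order.

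The integrated stress response raises amino acid synthesis and import through the factor Atf4 when amino acids run short or proteins misfold. Of 32 members of this list 8 were called positive and 0 negative, 5 of them away from zero, and 28 of 32 had a positive sign. The median interaction was 0.50, and the list's median effect was -0.51 for UK5099, -0.30 for butyrate and -0.47 for both drugs. Over all members the median effects were -0.12, -0.29 and -0.40, so the list's butyrate and combination medians were near those of all members. Over all members 0.88% were called positive, and 7366 of 14437 had a positive sign. Asns, asparagine synthetase, was at 34.9, 34.6 and 33.6 TPM in vehicle, 15.6, 16.4 and 17.1 with UK5099, 18.9, 19.98 and 19.9 with butyrate and 18.6, 19.7 and 20.1 with the combination. Slc7a5, the large neutral amino acid transporter, was at 52.3, 51.9 and 49.7 TPM in vehicle, 14.4, 14.4 and 14.6 with UK5099, 30.2, 29.5 and 30.2 with butyrate and 17.1, 19.1 and 18.3 with the combination. The combination samples of Asns overlapped those of butyrate, and those of Slc7a5 lay between the single drugs. Mthfd2, of mitochondrial one-carbon metabolism, and the factor Atf5 had interactions of 1.26 and 1.15. Stc2, a secreted glycoprotein, was lowered by UK5099 to 4.40, 4.0 and 3.85 TPM from 13.7, 13.5 and 13.2, and was at 8.52, 9.35 and 9.43 with the combination, while butyrate alone gave 11, 11.2 and 10.3. Chac1 (1.88) and Trib3 (1.69) were called near zero. Psat1, which lies in the serine synthesis branch, had an interaction of 0.18 and was not called.

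Interferon-stimulated genes, which restrain viruses, had the highest list median, 0.67. Of 39 members 10 were called positive and 0 negative, and 38 had a positive sign. Over all members 0.88% were called positive and 0.852% negative, and 7366 of 14437 had a positive sign. But 24 of the 39 were near zero, and only Irf7 and Bst2 were called away from it. Irf7, the factor that amplifies interferon production, was at 37.5, 42.1 and 36.4 TPM in vehicle, 16.8, 14.1 and 13.5 with UK5099, 10.8, 12.8 and 14 with butyrate and 9.75, 9.97 and 10.2 with the combination. Bst2, or tetherin, was at 11.3, 12 and 11 TPM in vehicle, 3.16, 3.63 and 2.83 with UK5099, 7.0, 6.17 and 7.07 with butyrate and 5.64, 6.13 and 4.15 with the combination. Each drug alone thus lowered both transcripts. With the combination Irf7 was a little under every single-drug sample, whereas Bst2 stayed above UK5099. The immune marker sum, in which only Cd68 and Cd14 were members, fell in the same 9 treated samples. Its part in this result was not tested. For the 15 interferon members away from zero the median was 0.47. MHC class I genes had a median of 0.34 over 21 members, 18 of them with a positive sign and 0 called.

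**Figure D3:**
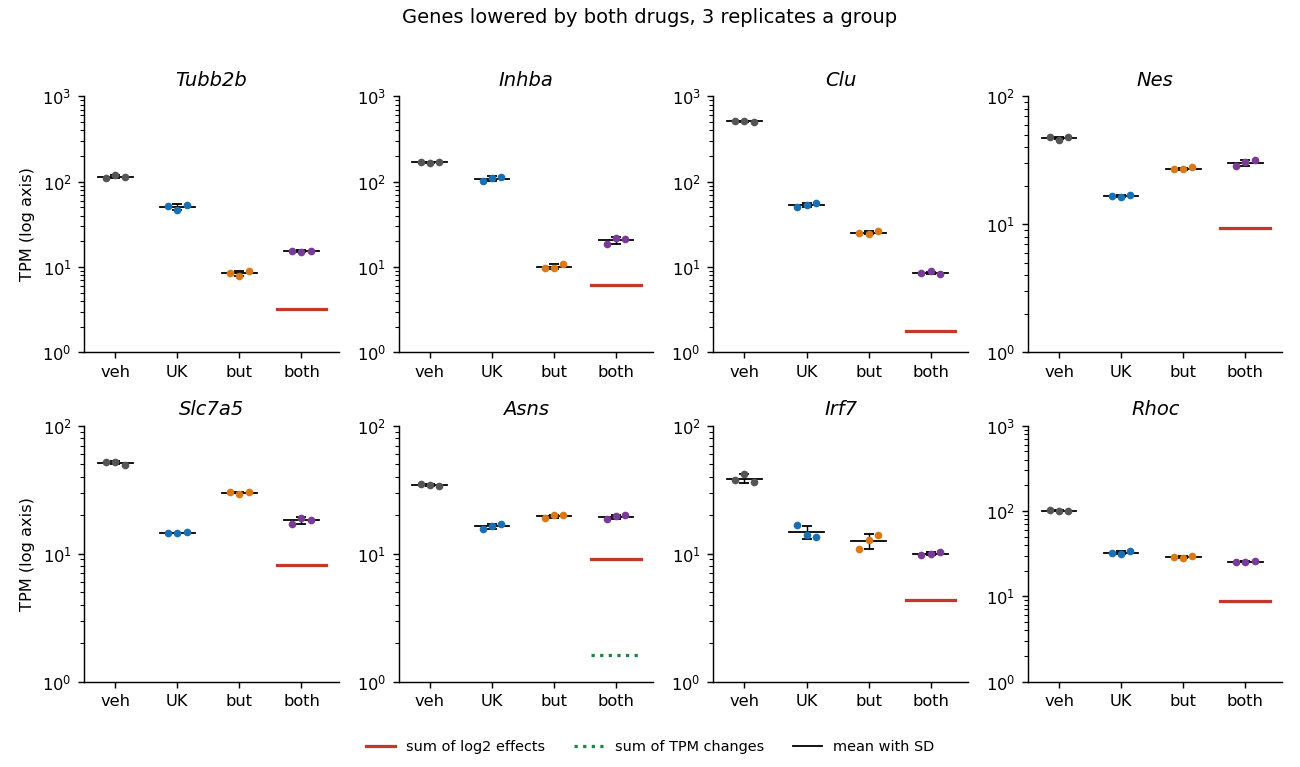
Replicate TPM on a log axis for 8 genes lowered by both drugs (veh, vehicle; UK, UK5099; but, butyrate; both, combination), with mean and SD. The red bar is the level expected from the sum of log2 effects, and the dotted green bar from the sum of TPM changes, which is above 0 and drawn only for Asns. In every panel the combination samples lie above the red bar.

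Of the 13 genes beyond the sum away from zero, 11 had a negative interaction and 2 a positive one, whereas all 13 near zero had a positive one. Both drugs lowered Mmp7 and Fmo2, and the combination lowered them further than the product of the folds. Mmp7 (chromosome 9, 7692091 to 7699587 in the table, plus strand), matrilysin, a protease of glandular epithelium, was at 292, 300 and 282 TPM in vehicle, 128, 128 and 125 with UK5099, 178, 172 and 181 with butyrate and 18.1, 20.9 and 20.2 with the combination. The product would have been 77.0 TPM, and the interaction was -1.91 ± 0.07 (SE), adjusted p = 2.2e-07. Fmo2, a flavin monooxygenase, was at 30.1, 30.1 and 27.5 TPM in vehicle, 12.7, 12.2 and 11.2 with UK5099, 18.7, 17.8 and 18 with butyrate and 2.2, 2.69 and 2.45 with the combination. On the TPM scale neither gene was below the sum of the changes, which was 12.7 TPM for Mmp7 and 0.976 for Fmo2, so this synergy is one of the log scale.

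Glul was called with the combination, while neither drug alone moved it by 0.5. It encodes glutamine synthetase, which makes glutamine from glutamate and ammonia. Glul (chromosome 1, 153775690 to 153785470 in the table, plus strand) was at 87.5, 89.1 and 87.3 TPM in vehicle, 80.7, 81.3 and 78.2 with UK5099, 82.6, 82.6 and 83.7 with butyrate and 28, 30.3 and 30.3 with the combination, 33.6% of vehicle. The product of the folds would have been 75.6 TPM and the sum of the changes 75.1, so Glul was below both expectations. Its interaction was -1.33 ± 0.04 (SE), adjusted p = 1.5e-07. The pseudogene Glns-ps1 followed it, with 0 of 12 values whole, which leaves its own level uncertain.

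Cep85, a centrosomal protein, was at 42.7, 42.9 and 42.1 TPM in vehicle, 38.0, 36.0 and 35.0 with UK5099, 36.2, 35.4 and 35.1 with butyrate and 12.9, 13 and 12.8 with the combination. Lrrc26, a subunit of BK potassium channels in secretory epithelium, was at 75.5, 71.5 and 67.5 TPM in vehicle, 84.4, 65.8 and 61.6 with UK5099, 71.1, 71.0 and 72.1 with butyrate and 35.0, 26.4 and 31.0 with the combination. Sh3bgrl3, a small thioredoxin-fold protein, was at 411 ± 4.68 TPM with the combination against 676 ± 18.1 in vehicle (SD, n = 3). Butyrate alone gave 621 ± 9.73 TPM, while UK5099 alone raised it to 925 ± 33.6, by 0.45 (log2), under the limit of 0.5. S100a4, a calcium-binding protein of motile cells, was the only gene of this kind that rose with the combination. It was then at 24.6, 26.7 and 28.1 TPM, against 13, 10.2 and 11.3 in vehicle. In each of these genes no combination sample overlapped any other group. Sh3bgrl3 (133854717 to 133856101) and Cep85 (133857169 to 133914424) lie close together on the minus strand of chromosome 4.

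In 3 genes a partner enhanced the effect of a single drug. Nlrp10, an inflammasome-related protein of skin, went from 103, 101 and 98.7 TPM in vehicle to 38.9, 36.3 and 38.1 with butyrate and to 12, 12.3 and 12 with the combination, while UK5099 alone gave 75.7, 75.4 and 78.0. Ckb, the brain-type creatine kinase, rose from 2.83, 3.08 and 2.32 TPM to 7.24, 7.37 and 6.48 with butyrate and to 17.0, 18.3 and 17.9 with the combination, but 11 of its 12 values were not whole. Ltf, the iron-binding lactoferrin, was at 0.996, 1.72 and 1.09 TPM with the combination against 5.89, 5.45 and 5.49 in vehicle. Without the first replicates of UK5099 and the combination its interaction was -0.94 and no longer called.

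The regions upstream of Mmp7 and Glul are given because Mmp7 had the largest interaction of the genes that both drugs lowered beyond the sum, and Glul was below both expectations. They are again the 250 bases before the RefSeq start on GRCm38.p6, at chr9:7691840-7692089 (plus strand, Mmp7, for which 2 starts are listed) and chr1:153899679-153899928 (plus strand, Glul). In Mmp7 the capitals mark an AP-1 motif, TGACTCA read on the other strand, which begins at -63. The same stretch holds TATAAA at -123 and -26.
Mmp7: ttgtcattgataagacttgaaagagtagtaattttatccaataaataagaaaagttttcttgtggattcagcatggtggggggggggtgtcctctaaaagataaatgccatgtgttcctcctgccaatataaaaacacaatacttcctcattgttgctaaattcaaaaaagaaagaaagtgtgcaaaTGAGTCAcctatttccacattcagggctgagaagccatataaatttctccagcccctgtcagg
Glul: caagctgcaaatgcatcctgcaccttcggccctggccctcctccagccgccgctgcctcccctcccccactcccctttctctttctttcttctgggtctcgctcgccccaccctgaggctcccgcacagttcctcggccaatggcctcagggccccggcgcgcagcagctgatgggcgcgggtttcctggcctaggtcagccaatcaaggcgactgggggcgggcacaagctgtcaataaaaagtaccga
TGACTCA, searched on both strands, occurred in 3.35% of the 8834 member promoters. The stretch of Glul holds no match to it and none to TATAAA, but has GGGCGG at -33, a motif found in 61.1% of those promoters.

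Away from zero butyrate was called alone in more members, 184 up and 404 down, than UK5099, 165 up and 96 down. These counts are on the deposited scale, where the median member away from zero moved by -0.30 with butyrate and -0.12 with UK5099. Under median-of-ratios scaling the medians over all members were -0.00 and 0.01. How far this shift enters the counts up and down was not tested. Butyrate also moved 19 of the 25 damped genes, 10 upward and 9 downward, and UK5099 moved the other 6. Mmp9, a gelatinase, was at 57.9, 57.5 and 54.3 TPM in vehicle, 37.7, 40.3 and 41.9 with UK5099, 3.86, 4.03 and 4.12 with butyrate and 16.3, 17.3 and 19.5 with the combination, an interaction of 2.39 ± 0.09 (SE). Krt17, a stress keratin, was at 219, 218 and 233 TPM with butyrate but at 461, 497 and 491 with the combination, against 463, 448 and 464 in vehicle and 431, 447 and 443 with UK5099. For Krt17 the fall under butyrate was thus not seen when UK5099 was present. Txnip, which limits glucose uptake and whose transcription follows glucose metabolites, rose with butyrate to 841, 769 and 809 TPM from 420, 416 and 400, and was at 236, 248 and 237 with the combination, below the 319, 320 and 309 of UK5099. Krt20, a keratin of differentiated luminal and umbrella cells, rose with UK5099 to 27.2, 24.1 and 27.9 TPM from 2.31, 1.74 and 1.78, but was at 5.41, 3.46 and 4.10 with the combination, while butyrate alone gave 2.83, 2.72 and 2.34.

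Other damped genes differed in where they ended. Aldh1a3, which makes retinoic acid, was lowered by butyrate to 28.3, 27.5 and 27.6 TPM and was at 61.3, 53.9 and 54.8 with the combination. Sprr2e, a cornified envelope precursor, was at 3.61, 4.53 and 5.73 TPM with butyrate and 16.4, 17.6 and 20.1 with the combination, close to the 17.8, 16.3 and 15.3 of vehicle, with 4 of 12 values whole. Kctd12b rose with butyrate from 4.26 to 8.83 TPM (means of 3) but was at 1.72 with the combination, under vehicle, with an interaction of -2.34. UK5099 alone also raised Kctd12b, to 6.38 TPM, an effect of 0.49 (log2) just under the limit of 0.5 for moving. Ifne, an epithelial interferon, rose with butyrate and had an interaction of -1.43. Ifne lost its call without the first replicates of UK5099 and the combination. Hopx (-1.02), a homeodomain protein of epithelial progenitors, lost it on leaving out any of 4 single samples.

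In 3 genes the drugs pulled in opposite directions. Clca1, a secreted regulator of chloride channels in mucous epithelium, was at 13, 14.5 and 11.3 TPM in vehicle, 9.29, 7.33 and 5.34 with UK5099, 48.2, 49.7 and 47.9 with butyrate and 3.35, 3.66 and 4.0 with the combination. The combination was the lowest group for a gene that butyrate alone raised 3.76-fold, and its interaction was -2.65 ± 0.22 (SE), adjusted p = 3.7e-05. Mmp10, stromelysin 2, had 18.7, 17.1 and 18.9 TPM with UK5099, 1.15, 1.18 and 1.33 with butyrate and 6.16, 6.43 and 6.19 with the combination, from 12.3, 11.5 and 12.4 in vehicle. Ifi202b, an interferon-inducible DNA sensor, had 19.8, 20.7 and 21.7, 4.09, 4.01 and 3.97, and 14.7, 13.9 and 14.1 TPM in that order, against 13.7, 13.5 and 13.6 in vehicle. Its interaction of 1.03 fell to 1.00, just under the limit, without UK5099 replicate 1. For Mmp10 none of the 9 low values was whole, which leaves its level uncertain.

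**Figure D4:**
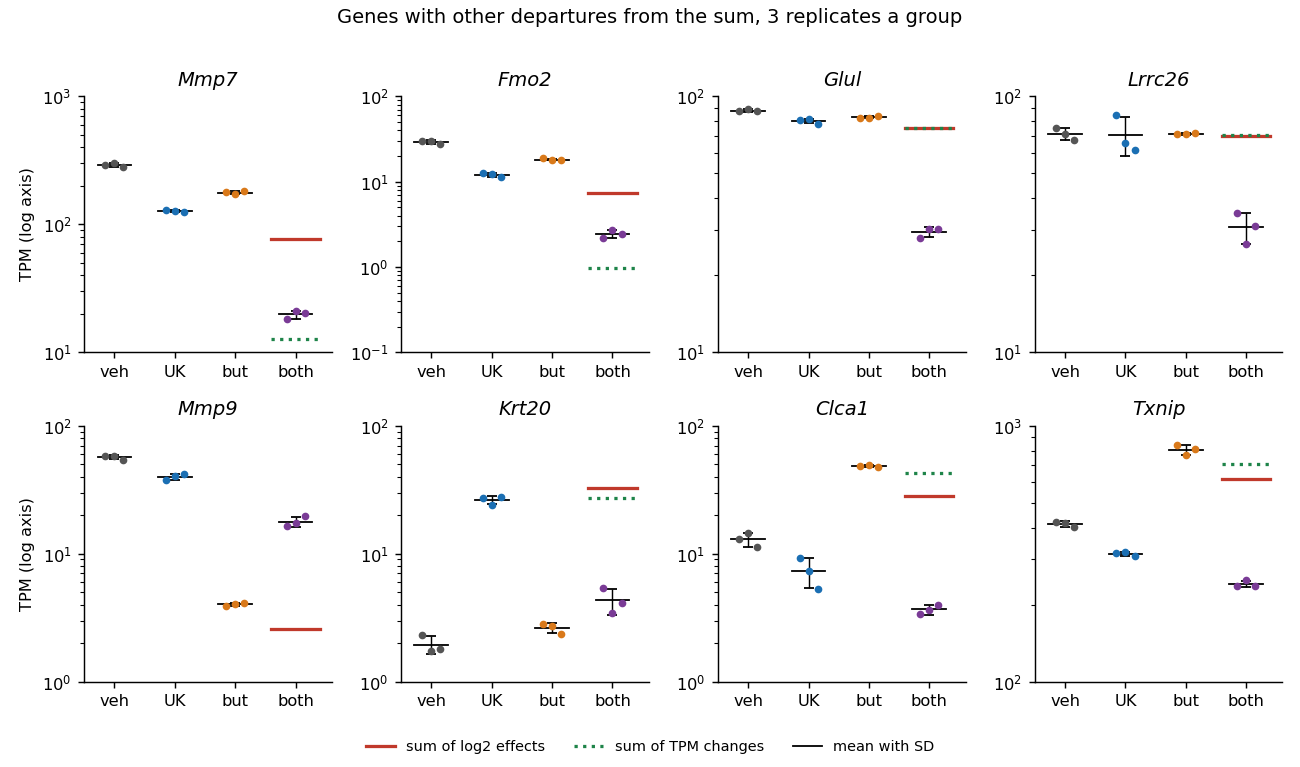
Replicate TPM on a log axis with mean and SD (veh, vehicle; UK, UK5099; but, butyrate; both, combination) for 2 synergistic genes (Mmp7, Fmo2), 2 that moved only with the combination (Glul, Lrrc26), 3 damped genes (Mmp9, Krt20, Txnip) and Clca1, where the drugs were opposed. Red bars give the sum of log2 effects and dotted green bars the sum of TPM changes. Glul and Lrrc26 lie under both bars, while Mmp7 and Fmo2 lie between them.

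Near zero the picture depended on the scale. Of 108 called genes there, 67 were lowered by both drugs and 16 raised by both, with the combination short of the sum. In 3 more, also raised by both drugs, the combination went beyond the sum. Fn1, fibronectin, was at 72.1, 68.2 and 70.2 TPM in vehicle, 1.98, 2.24 and 2.21 with UK5099, 0.951, 0.858 and 1.00 with butyrate and 0.234, 0.257 and 0.265 with the combination, so its positive interaction of 3.87 came with a further fall. Of the 849 members that reached 1 TPM in a single group, 34 were called positive and 3 negative, and in 412 of them that group was vehicle. Such genes had to differ between groups to be members at all.

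Some cornified envelope genes near zero had positive interactions. In the cornified envelope list 7 of 41 members were called positive and 11 negative, but away from zero 1 was positive and 9 were negative. Over all members away from zero 0.356% were called positive and 0.847% negative. By voom the list had 4 positive and 15 negative calls and a median of -1.02. The genes named next were chosen after their values were seen, and Tgm3 and Sprr3 were members only through the combination, where they were high. Tgm3, the late transglutaminase, was at 1.98, 2.05 and 2.21 TPM with the combination, and its other 9 samples were all at or under 0.078. Sprr3 was at 1.84, 1.18 and 1.33 TPM with the combination and at or under 0.262 elsewhere. By voom the interaction of Sprr3 kept its sign but was not significant (adjusted p = 0.13). Crct1 went from 1.91, 2.99 and 1.3 TPM with UK5099 and 1.88, 2.90 and 1.85 with butyrate to 19.7, 21.4 and 21.3 with the combination. Crct1 is in no list and was highest with the combination. Of the 13 genes near zero whose combination went beyond the sum, all upward, voom called 3 as positive and 0 as negative, and 9 kept a positive sign. For Crct1, Cnfn and Stfa1 the voom interaction was -0.80, -1.12 and -2.14, the opposite sign, though none of the 3 was significant by voom (adjusted p = 0.54, 0.59 and 0.091). Voom differs in unit, offset, scaling and weights, and which of these turned the sign was not tested.

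No member was called in 20 of 46 gene lists, one of which (endothelium) had no member. At 1.73% called over all members, a list of this size holds few or no calls in any case. The lists without a call included glycolysis (26 members), the TCA cycle (21), the nuclear-encoded respiratory chain (69), fatty acid oxidation (28), cholesterol and fatty acid synthesis (36), DNA replication (47) and mitosis (45). Signs over all 14437 members were 7366 positive and 7071 negative. In these lists they could still be uneven, with 40 of 47 DNA replication genes positive and 21 of 26 glycolysis genes negative. Their median interactions lay between -0.15 for glycolysis and 0.15 for DNA replication, whose median effect was -0.39 for UK5099, -0.44 for butyrate and -0.73 for both drugs. Over all members these median effects were -0.12, -0.29 and -0.40. Mpc1 and Mpc2, the carrier subunits that UK5099 targets as proteins, had interactions of -0.00 (95% interval -0.19 to 0.18) and -0.08 (-0.20 to 0.04).

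The luminal keratin Krt8 and the general epithelial marker Epcam were close to the sum. Krt8 fell to 370, 373 and 348 TPM with UK5099, 272, 275 and 279 with butyrate and 120, 117 and 119 with the combination, from 929, 927 and 894 in vehicle, with an interaction of 0.12 ± 0.04 (SE), adjusted p = 0.052. Epcam, the epithelial adhesion molecule, fell from 531, 546 and 532 TPM to 91.2, 97.0 and 98 with the combination, with an interaction of -0.01. Of the basal markers, Krt5 had an interaction of -0.90 and Trp63 of -0.72, under the limit of 1, and the basal and hemidesmosome list had 0 of 16 members called. That list had a median of -0.05, with 7 positive and 9 negative signs. The basal markers Krt14 and Itga6 were lower with butyrate alone on the deposited scale, unlike Krt5 and Trp63. Krt14 went from 1651, 1687 and 1691 TPM in vehicle to 1365, 1375 and 1432, and Itga6 from 38.5, 37.7 and 37.8 to 33.0, 33.0 and 33.4. That scale also lowered the median member with butyrate, by 0.29 (log2), and these falls were not set against that shift. With UK5099 Krt14 was at 4863, 5040 and 5237 TPM and Itga6 at 58.1, 61.9 and 64.2. With the combination they were at 3779, 3561 and 3583 TPM and at 44.2, 47.1 and 48.8.

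**Figure D5:**
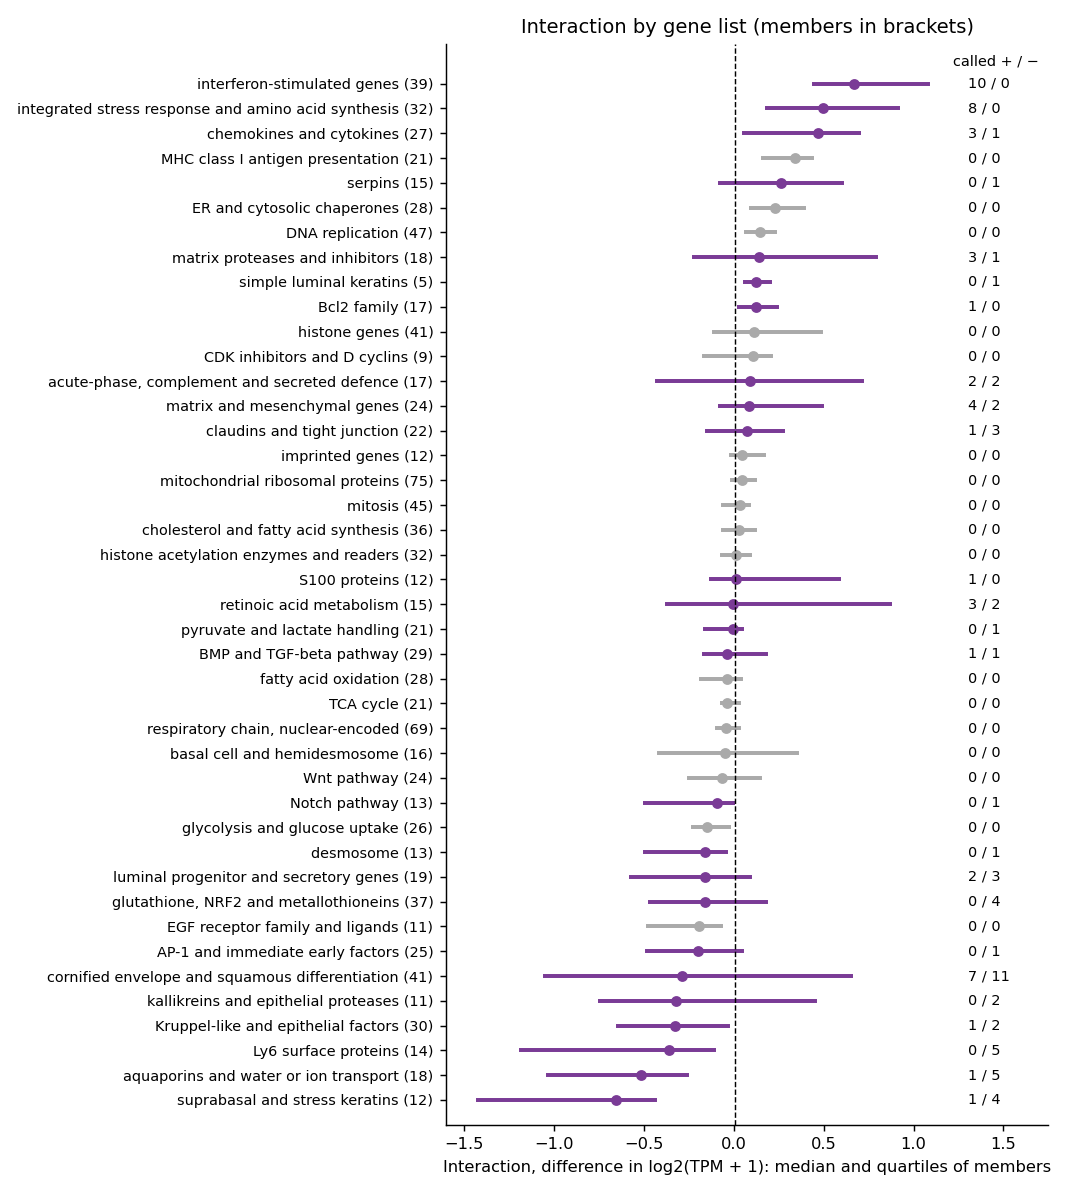
Points are the median interaction of the members of each gene list with at least 5 members and bars its quartiles, as differences in log2(TPM + 1). Numbers in brackets count members, numbers on the right count members called positive and negative, and grey marks lists with 0 called. The dashed line is the median of all members, 0.01, and the lists run from suprabasal keratins at -0.65 to interferon-stimulated genes at 0.67.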

How the data were processed

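RNA was sequenced from 12 organoid samples in 4 groups of 3, taken from the sample labels. Per the labels, ribosomal RNA was depleted and mRNA enriched before paired-end sequencing. The authors deposited 1 table of TPM values per gene. The study's methods name fastp, STAR, GRCm38 and RSEM, whereas the submitters' processing notes name STAR 2.7.9a, Partek and GRCm39, and the table names no build. Crnn, Krt10, Glul and Ly6g6c lie at other positions in the table than in RefSeq on GRCm38.p6, so its coordinates are not those of GRCm38, and they are printed as given. Gene length in the table equals stop minus start for 100% of genes, and TPM followed division by that span, introns included, so levels cannot be compared between genes as numbers of transcripts. The steps between low values show what 1 fragment is worth, and depth and fragments were recovered from them. Of values above 0, between 58.7% and 60.9% were whole with a tolerance of 0.02.

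The fit was limma 3.58.1 in R 4.3.3 on log2(TPM + 1) over all 24674 genes and 12 samples, with UK5099, butyrate and their interaction, empirical Bayes moderation and Benjamini-Hochberg adjustment over all genes. Calls required adjusted p below 0.01 with a coefficient larger than 1 in size. The study gives this model and both limits, and the pseudocount of 1 came from the rule for members. Near zero meant a lowest group mean or an additive expectation under 1 TPM. Whether replicates were separate cultures is not stated, so p-values measure the spread between these samples. All replicate pairs differed by more than sampling noise and each was counted.

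The members, the 46 gene lists and the rules were chosen with earlier results of these data known. Named genes were, in each class away from zero, the up to 5 called protein-coding genes with the largest interaction and the same sign at an adjusted p-value under 0.05 by voom, gene models left out, then up to 3 called members of each list, and Mpc1 and Mpc2. Further genes, such as Krt17, Txnip, Asns and the late squamous genes, were named after their values were seen. Tested on simulated data for the interaction over 24674 genes, the fit recovered 92 of 94 genes with a log2 interaction of 2 and 106 of 106 with 3, and called 0 of 7256 additive genes. The changed and additive genes were drawn only from members well above 1 TPM in every group. Genes near zero and interactions between 1 and 2 were thus not covered by this test. Alternatives were other pseudocounts, scalings, priors, limits, a replicate block, single samples left out and voom. Tables and plots were made with pandas 2.3.3, matplotlib 3.10.9, scipy 1.17.1 and numpy 2.4.6 under Python 3.11.15. Promoters came from RefSeq.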

Additional observations from a re-analysis of the deposited data

Results flagged for a closer look

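The interaction is itself the test of whether the effect of one drug differed with and without the other, and by it 250 members differed. No cause was tested.

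Among named genes that both drugs raised, the interactions were -4.51 for Nccrp1, -3.89 for Ly6g6c, -3.75 for Aqp3, -3.49 for Spink5, -3.42 for Crnn, -3.21 for Psca, -3.19 for Ly6d, -3.03 for Krt10, -2.33 for Krt13, -2.31 for Defb1, -2.26 for Krt78 and -2.18 for Aldh3a1. They were -2.01 for Tmprss11b, -1.92 for Dsg4, -1.91 for Car12, -1.90 for Zfp750, -1.86 for Ldhd, -1.50 for Cldn1, -1.49 for Crabp2, -1.48 for Egr3, -1.42 for Tslp, -1.42 for Dll1, -1.19 for Serpinb1a and -1.17 for Nqo1. Near zero they were -3.16 for Mt4, -1.38 for Tmprss11g, -1.28 for Tgfbi and -1.21 for Gjb6.

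Among genes that both drugs lowered, the interactions were 1.93 for Tubb2b, 1.79 for Clu, 1.59 for Nes, 1.58 for Inhba and 1.53 for Cldn6. Near zero they were 3.87 for Fn1, 2.44 for Spp1, 2.16 for Hp, 1.88 for Chac1, 1.85 for Oasl2, 1.69 for Trib3, 1.63 for Irgm1, 1.60 for Isg15, 1.53 for Csf2, 1.35 for Il23a, 1.20 for Mmp23, 1.18 for Cyp26b1 and 1.09 for Bid.

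Beyond the sum, Mmp7 had an interaction of -1.91, Glul of -1.33, Fmo2 of -1.26, Nlrp10 of -1.17, Cep85 of -1.17, Lrrc26 of -1.17, Ltf of -1.15, Sh3bgrl3 of -1.04, S100a4 of 1.10, Ckb of 1.48 and Pitx1, near zero, of 1.45. By voom the interaction of Pitx1 was 0.37 and not significant (adjusted p = 0.83). Where one drug damped or opposed the other, the interaction was -2.68 for Krt20, -2.65 for Clca1, -2.46 for Dcn near zero, -2.34 for Kctd12b, -1.43 for Ifne, -1.02 for Hopx, 2.39 for Mmp9, 1.70 for Sprr2e, 1.39 for Aldh1a3, 1.28 for Stc2, 1.15 for Mmp10 and 1.03 for Ifi202b.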

How the results depend on the processing

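Of 1562 pairs of a named gene and an alternative, 1514 kept their direction and side of the limits, 48 (in 24 genes) kept the direction but fell under a limit, and none reversed. Class genes were chosen for the same sign by voom, so for them that alternative could not reverse. Crct1, Cnfn and Stfa1, named later, did reverse by voom, from 1.32, 1.18 and 1.03 to -0.80, -1.12 and -2.14. Counts moved more. With a pseudocount of 0.1 there were 384 calls, 213 negative and 206 near zero, and 752, 1468 and 2506 for UK5099, butyrate and the combination. With a pseudocount of 5 there were 92 calls (89 of them among the 250), 39 positive and 53 negative, 25 near zero and 67 away, with 36 saturating up, 14 saturating down, 8 beyond the sum and 9 damped or opposed, 3 interferon, 3 stress response and 9 cornified genes, and 183, 375 and 653 for the drugs in the same order. By voom there were 404 calls, 241 negative and 219 near zero, 49 damped or opposed, and 788 and 1390 for UK5099 and butyrate. With no limit on size there were 2857, of which 1417 were positive, 1440 negative, 561 near zero and 2296 away, with 175, 299, 1110 and 712 in the 4 class groups above, 30 interferon and 26 stress response genes, and 7081, 9702 and 10595 for the drugs. Here the count grew because the limit was dropped, and more genes were beyond the sum than saturating. Median-of-ratios scaling and quantile normalisation each gave 17 saturating down. A limit of 1 for single effects gave 12 saturating down, 29 beyond the sum and 51 damped or opposed. The cause of the other shifts was not tested.

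Leaving out 1 sample at a time gave 235 to 252 calls (114 to 128 positive, 115 to 130 negative, 133 to 149 away, 98 to 110 near zero), 67 to 77 saturating up, 24 to 30 saturating down, 24 to 29 damped or opposed, 13 to 17 beyond the sum, 15 to 18 cornified, 6 to 8 stress response and 7 to 14 interferon genes, and 438 to 459, 862 to 895 and 1527 to 1642 calls for the drugs. Isg15 lost its call in 9 of 12 such fits. The replicate numbers gave no sign of pairing, with correlations of same-numbered samples between -0.0894 and 0.0363 and 3 of 12 samples closest to their own number. A replicate block gave 242 calls, 241 of them among the 250. Depth bears on low genes, such as Mmp23, which had between 1 and 51 fragments per sample, but Fn1 had at least 173.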
